A study of Mus musculus with 57 samples.

Results

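GATA4 and SOX17 are transcription factors of the primitive endoderm (PrE), the extraembryonic lineage that separates from the epiblast (Epi) in the blastocyst. Their binding at 24 h of GATA6-driven differentiation is described here from 4 CUT&RUN peak lists, 2 per protein, of the 57 samples of the series. All 4 samples were KH2 mouse embryonic stem (ES) cells of C57BL/6 background that carried TRE:GATA6-DSREd2, a single-copy transgene from which doxycycline (Dox) induces FLAG-tagged GATA6 and the fluorescent protein DsRed2. Cells kept in 2i medium were moved to serum medium with Dox for 12 h and then to serum medium without Dox for the remaining 12 h. Each replicate held 100000 cells, stained with an antibody to GATA4 or to SOX17. The cells therefore all carried the transgene and had all received Dox, and no uninduced GATA4 or SOX17 sample was compared.

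In CUT&RUN an antibody guides a nuclease to a protein on chromatin, and the fragments it frees are sequenced. A peak is a stretch where fragments pile up over the local background, its fold is the height of that pileup relative to the background, and its summit is the highest point. Overlapping peaks of the 4 lists were merged into 52146 regions. A region was called shared if it held a peak of all 4 lists, GATA4-only if it held a peak of both GATA4 lists and of neither SOX17 list, and SOX17-only for the converse. This gave 2539 shared, 264 GATA4-only and 14164 SOX17-only regions. A further 309 regions held both GATA4 lists and 1 SOX17 list, and 2558 held both SOX17 lists and 1 GATA4 list. The other 32312 regions lacked a protein with both of its lists: 28804 held a peak of 1 SOX17 list alone, 2617 of 1 GATA4 list alone and 891 of 1 list of each.

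GATA4 is a zinc finger protein of the family of GATA6 and binds the sequence GATA with preferred flanking bases. SOX17 belongs to the SOX proteins, whose HMG box bends DNA at a short core around ACAAT, and its relative SOX2 is a factor of the Epi state. SOX2 is known to bind next to the POU factor OCT4 (gene Pou5f1) at a joint element in which a SOX half-site and a POU half-site are separated by 1 base. SOX17 is known to prefer a compressed form of that element, without the spacer. In PrE cells GATA6 acts upstream of Gata4, Sox17 and Pdgfra, and the lineage lays down a basement membrane rich in laminin and type IV collagen.

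The reference sequence around the summit of the strongest region of each class is shown with the matches it holds. Each line holds 151 bases of the plus strand of GRCm38.p6 from RefSeq, centred on the mean summit, in lower case. Capitals mark matches to the GATA motif on either strand, which was AGATAA or its variant AGATAG, or else TGATAA with its variant TGATAG, or to the SOX motif on either strand, which was ACAATG with its variant ACAATA. The 2 motifs share no word. The strongest region was the one with the highest geometric mean fold over the lists that define its class.
Shared, intron of Cd59a, chr2:104098677-104098827: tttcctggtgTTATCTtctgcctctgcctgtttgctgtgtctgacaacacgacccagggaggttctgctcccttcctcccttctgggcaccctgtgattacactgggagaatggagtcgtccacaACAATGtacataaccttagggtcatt
GATA4-only, intron of 1700016D06Rik, chr8:11692580-11692730: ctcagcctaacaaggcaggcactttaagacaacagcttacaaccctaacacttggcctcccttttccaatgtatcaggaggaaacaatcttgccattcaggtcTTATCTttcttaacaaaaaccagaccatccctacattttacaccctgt
SOX17-only, intergenic, nearest gene Nkain1, chr4:130520144-130520294: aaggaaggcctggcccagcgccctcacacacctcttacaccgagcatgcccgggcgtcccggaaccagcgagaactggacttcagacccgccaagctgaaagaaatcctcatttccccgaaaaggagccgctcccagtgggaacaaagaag
The shared sequence held 1 match of each motif, the GATA4-only sequence 1 GATA match and no SOX match, and the SOX17-only sequence neither.

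The strongest shared region of 5 PrE transcription factor genes is shown in the same way, since these are the sites at which both proteins were found at the regulators of the lineage.
Gata4, intron, chr14:63231225-63231375: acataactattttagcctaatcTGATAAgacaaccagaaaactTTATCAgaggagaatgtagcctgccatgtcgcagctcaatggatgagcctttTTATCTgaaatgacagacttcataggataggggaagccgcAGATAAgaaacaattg
Sox17, intergenic, chr1:4474529-4474679: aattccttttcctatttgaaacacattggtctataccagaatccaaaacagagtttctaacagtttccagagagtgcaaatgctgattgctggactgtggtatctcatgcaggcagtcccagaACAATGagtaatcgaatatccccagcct
Foxa2, intergenic, chr2:148040768-148040918: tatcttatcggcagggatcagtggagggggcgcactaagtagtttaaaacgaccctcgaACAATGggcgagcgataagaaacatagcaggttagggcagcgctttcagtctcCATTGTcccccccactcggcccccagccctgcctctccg
Foxq1, intergenic, chr13:31531350-31531500: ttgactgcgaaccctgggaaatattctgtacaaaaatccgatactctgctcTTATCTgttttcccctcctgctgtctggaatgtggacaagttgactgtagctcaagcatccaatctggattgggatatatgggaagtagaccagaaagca
Tcf7l2, intergenic, chr19:55700554-55700704: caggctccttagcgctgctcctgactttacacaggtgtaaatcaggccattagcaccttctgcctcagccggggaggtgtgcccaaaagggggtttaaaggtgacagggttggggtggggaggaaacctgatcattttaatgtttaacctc
The sequence in the Gata4 intron held 4 GATA matches and no SOX match, and the Foxa2 sequence held 2 SOX matches and no GATA match. The Sox17 sequence held 1 SOX match, the Foxq1 sequence 1 GATA match, and the Tcf7l2 sequence neither.

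The GATA4 lists were much shorter than the SOX17 lists. They held 8427 and 4006 peaks, and the SOX17 lists 27328 and 41979 peaks. The mean log2 peak number was 12.5 ± 0.759 for GATA4 and 15.1 ± 0.438 for SOX17 (SD, n = 2 each). The groups did not overlap, and the difference of -2.54 had p = 0.33 in a two-sided exact permutation test over lists (adjusted p = 0.417 over 5 such tests), which is the smallest p that 2 lists against 2 can give. The longer GATA4 list, replicate 1, had 37.1% of its peaks in common with replicate 2, and the shorter one 77.9% with replicate 1. For SOX17 replicate 1 the share was 72.0%, and for the longer replicate 2 it was 46.7%.

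Part of how the lists were made differed between the proteins. For each list, 1 background coverage was recovered as the value that explained the fold and p-value of the most peaks. Peaks on that background made up 24.2% and 31.2% of the SOX17 lists and 35.45% and 20.1% of the GATA4 lists. The background was 1.23 and 1.55 fragments per base for SOX17, with a whole-number pileup (within 0.01) at every peak that lay on it. For GATA4 it was 0.852 and 0.879, and the pileups came in steps of 0.861 and 0.670 and not in whole fragments. Divided by these steps, the GATA4 backgrounds were 0.989 and 1.31. Replicate 2, with the smaller step, had the fewer peaks. The weakest −log10 p-value was 4.25 and 4.61 in the GATA4 lists but 3.62 and 3.45 in the SOX17 lists. The part of these steps and of depth in the number of GATA4-only and SOX17-only regions was not tested. The titles of the GATA4 and SOX17 libraries also begin with different letter codes, of which the labels give no meaning, so the code and the protein cannot be told apart.

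Most sites with GATA4 in both lists also had SOX17 in both lists. Of the 3112 GATA4 regions, 81.6% (95% Wilson interval 80.2 to 82.9%) were shared and 8.48% were GATA4-only. Of the 19261 SOX17 regions, 13.2% (12.7 to 13.7%) were shared and 73.5% were SOX17-only. The intervals cover counting error only. These shares depend on list length: with the 4000 peaks of highest −log10 q from each list, 865 regions were shared, 1262 GATA4-only and 1734 SOX17-only, which put 35.9% of GATA4 regions and 27.7% of SOX17 regions in the shared class. They also depend on GATA4 replicate 2. Without it, 4631 regions were shared and 2660 were GATA4-only, and 55.6% of GATA4 regions were shared. Without GATA4 replicate 1 there were 507 GATA4-only regions, without SOX17 replicate 2 there were 523, and 35908 and 22015 regions were SOX17-only without SOX17 replicate 1 and 2. In bulk cells, fewer cells with a protein at a site and weaker binding per cell cannot be told apart, and a shared region does not show that both proteins were on the same molecule of DNA.

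SOX17 peaks were taller in shared than in SOX17-only regions. In the shared regions the median SOX17 fold was 8.57 in replicate 1 and 10.2 in replicate 2, and in SOX17-only regions it was 5.82 and 6.47. The ratio was 1.47 and 1.58, or a log2 difference of 0.61 ± 0.07 (SD, n = 2). The median GATA4 fold was 7.22 and 6.59 in shared regions and 6.60 and 6.20 in GATA4-only regions, a log2 difference of 0.11 ± 0.03. Regions of 1 list are not replicates of a condition, so values of region classes are given for each list and without a test. With the 4000 top peaks per list the SOX17 difference shrank to 0.05 and the GATA4 difference to 0.03. Without GATA4 replicate 2 the GATA4 difference was 0.35 and the SOX17 difference 0.44, and without SOX17 replicate 1 the SOX17 difference was 1.03. Shared regions were also wider, with a median of 790.0 bp against 328.0 bp for GATA4-only and 524.5 bp for SOX17-only regions, but a shared region merges 4 peaks and the others 2.

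**Figure D1:**
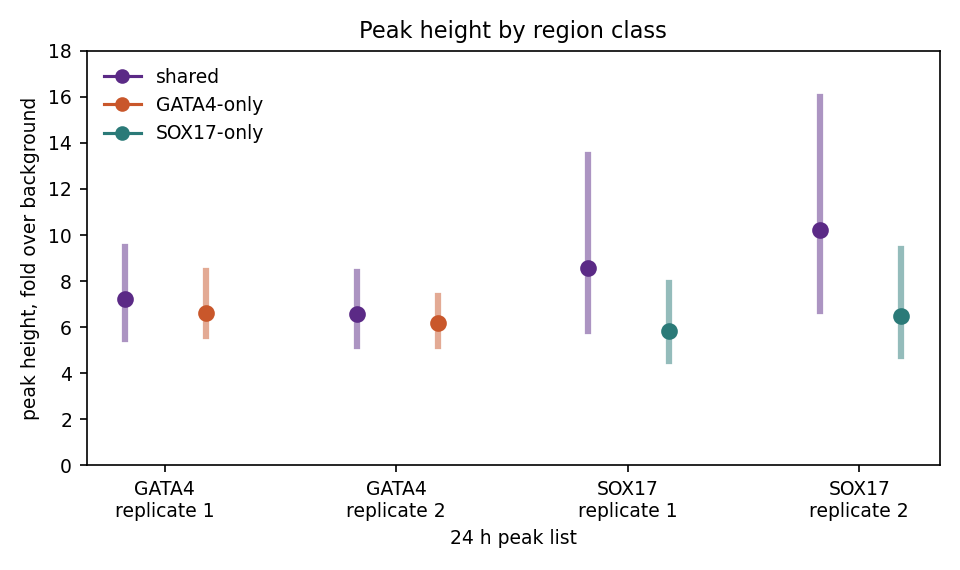
Peak height (fold over background) in each 24 h list, by region class, with points for medians and bars from the first to the third quartile. Median SOX17 fold was 8.57 and 10.2 in shared against 5.82 and 6.47 in SOX17-only regions, whereas GATA4 medians lay between 6.20 and 7.22 in both of its classes.

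The taller a SOX17 peak, the more often GATA4 was found with it. Splitting the SOX17 regions into 5 bins of rising geometric mean fold, the shared percentage was 6.02%, 7.17%, 9.71%, 14.8% and 28.3%, and the SOX17-only percentage was 84.0% in the lowest and 53.3% in the highest bin. Among GATA4 regions the shared percentage varied little over the bins, from 78.3% to 86.04%, with 81.7% in the lowest. Across the 2539 shared regions, Spearman's rho was 0.61 between the GATA4 lists and 0.83 between the SOX17 lists, but between 0.03 and 0.06 for the 4 pairs of a GATA4 with a SOX17 list. These correlations run across regions of the same libraries and are descriptions only. The fold of a region was that of its strongest peak in each list. The part of region width in the rise over the SOX17 bins was not tested.

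Among the strongest regions, the shared one in the Cd59a intron, a gene for an inhibitor of complement, had GATA4 folds of 31.2 and 30.9 and SOX17 folds of 44.3 and 40.8. An intergenic shared region 70700 bp upstream of Npas2, a circadian transcription factor gene, had GATA4 folds of 34.95 and 33.7. Its SOX17 folds were 28.8 and 26.5. With the mitochondrial chromosome left out, these GATA4 folds were the highest of their lists, and the highest folds of the SOX17 lists were 178 and 183. Folds of the 2 proteins are therefore not on a common scale, here and below, and do not say which protein bound more. A shared region 177775 bp from the start of Sipa1l2 had GATA4 folds of 15.6 and 13.3 and SOX17 folds of 83.3 and 81.3. Shared regions near Mesd, which encodes a chaperone for lipoprotein receptors, and near Ankrd28 completed the 5 strongest, with SOX17 folds of 72.5 and 68.9, and of 70.9 and 73.5. The strongest SOX17-only region lay 53954 bp from Nkain1, with folds of 70.6 and 99.2. The others lay at the promoter of Fbxl19 (62.1 and 82.0) and near Vpreb2, Gpx2 and Lamp5, with SOX17 folds between 52.8 and 78.1. The strongest GATA4-only region, in an intron of 1700016D06Rik, had GATA4 folds of 17.8 and 15.1. Those near Nsmce1, G2e3, Map3k2 and Zdhhc24 lay between 11.6 and 15.9. The classes differ in number, so their strongest regions do not compare the classes. Over whole classes the median GATA4 fold in shared regions was higher than in GATA4-only regions by a log2 of 0.11.

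In shared regions, summits of the 2 proteins lay further apart than those of replicates. Regions were merged from overlapping peaks, which by itself keeps summits near each other. The distances are therefore read only against those between replicates. The median distance between a GATA4 and a SOX17 summit in the shared regions was 62.0, 65.0, 71.0 and 73.0 bp in the 4 pairs of lists, a mean of 67.8 ± 5.12 bp. Between replicates it was 43.0 bp for GATA4 and 46.0 bp for SOX17. The values of the 4 mixed pairs all lay above both replicate values. The share of regions with summits within 50 bp was 41.3 ± 2.67% over the mixed pairs, and 54.9% and 53.5% between replicates. For 12.9 ± 1.36% of regions a GATA4 and a SOX17 summit were over 200 bp apart, against 6.38% and 7.92% between replicates. The mixed pairs reuse the same 4 lists and are not independent. In the regions of a single protein, replicate summits were 49.0 bp apart for GATA4-only and 65.0 bp for SOX17-only, so the distance between replicates also varied with the class.

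**Figure D2:**
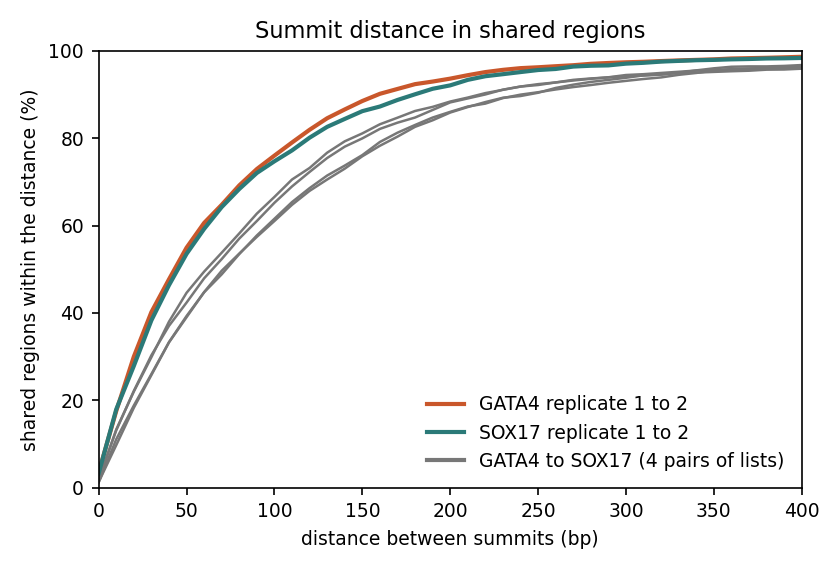
Cumulative percentage of the 2539 shared regions (y axis) whose summits in 2 lists lie within a distance in bp (x axis). Replicate curves run above the 4 GATA4 to SOX17 curves; at 50 bp they stood at 54.9% and 53.5% against a mean of 41.3%.

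The classes also differed in their sequence. A GATA motif lay within 100 bp of 77.6% and 76.5% of GATA4 summits in shared regions and of 77.7% and 79.5% in GATA4-only regions. At the SOX17 summits it was 65.5% and 68.9% in shared but 35.8% and 37.5% in SOX17-only regions. For comparison, 40.8% of the 202064 merged regions of all 30 lists of the series, and 19.9% of RefSeq promoters of the same length, held it. SOX17-only regions thus held the GATA motif at about the level of the whole series, and both classes with GATA4 held it well above that level. Counts per region followed, with 3 or more GATA matches at 16.7% and 16.7% of GATA4 summits in shared regions, 20.1% and 19.7% in GATA4-only regions, and 2.104% and 2.27% of SOX17 summits in SOX17-only regions.

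The SOX motif separated the classes in another order. It lay within 100 bp of 34.5% and 39.2% of SOX17 summits in SOX17-only regions and of 28.0% and 31.5% in shared regions. At GATA4 summits it was 32.3% and 33.0% in shared regions but only 8.71% and 11.0% in GATA4-only regions, which is below the 23.4% of all regions of the series and the 13.5% of promoters. Both motifs occurred together at 26.9% and 27.5% of GATA4 summits in shared regions against 7.96% and 9.09% in GATA4-only regions. Neither motif was found at 44.3% and 40.3% of SOX17 summits in SOX17-only regions and at 26.2% and 23.0% in shared regions. Means over lists take summits of both proteins in shared regions, but only the protein's own summits in single-protein regions. By these means GATA4-only, shared and SOX17-only regions stood at 78.6%, 72.1% and 36.6% for the GATA motif. For the SOX motif they stood at 9.85%, 31.2% and 36.8%. With 4000 peaks per list the order of these means stayed, at 82.2%, 70.6% and 36.1% (GATA) and 18.4%, 40.6% and 48.2% (SOX). At GATA4 summits alone the full lists gave nearly the same GATA motif share in shared and GATA4-only regions. Without GATA4 replicate 2 the GATA motif share, over the summits of the remaining lists, was 52.7% in GATA4-only and 62.5% in shared regions.

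**Figure D3:**
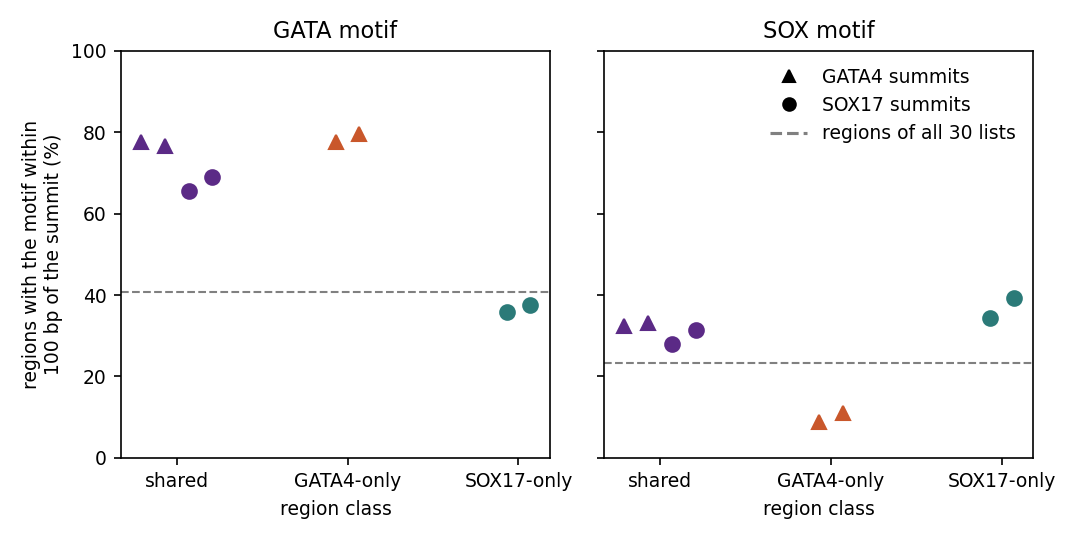
Percentage of regions with a GATA (left) or SOX (right) motif within 100 bp of the summit, by class, with 1 point per list and a dashed line for the regions of all 30 lists. GATA4-only regions stand at 77.7% and 79.5% for GATA but 8.71% and 11.0% for SOX, and SOX17-only regions at 35.8% and 37.5% for GATA and 34.5% and 39.2% for SOX.

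Over whole lists the same motifs were counted without any class. The GATA motif was found at 63.6% and 74.0% of GATA4 peaks and 38.7% and 40.3% of SOX17 peaks (68.8 ± 7.403% against 39.5 ± 1.11%, a difference of 29.3 percentage points), and the groups did not overlap. The SOX motif was found at 24.4% and 28.8% of GATA4 peaks and 30.1% and 32.5% of SOX17 peaks, again without overlap. Both had p = 0.33 in the exact permutation test (adjusted p = 0.417), the smallest this design allows. With a window of 50 bp the SOX difference was -0.16 percentage points.

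In 648 shared regions (25.5%) both motifs lay within 100 bp of the mean summit, and their centres were a median of 33.0 bp apart (quartiles 16.0 and 59.3 bp). The GATA4 summit was nearer to the nearest GATA match than to the nearest SOX match in 53.9% and 50.0% of regions. For the SOX17 summit the shares were 59.7% and 57.9%. GATA matches were the more numerous, with 4682 against 1466 SOX matches in a wider window over all shared regions. More matches bring the nearest one closer to any position, and the part of match number in these shares was not tested.

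The joint SOX and POU element was counted in all lists. The half-sites ATTGT and ATGCA, in this order on either strand, were sought side by side (compressed) or with 1 base between them (canonical) within 100 bp of each summit. SOX17 lists held the compressed form at 43 and 78 peaks and the canonical form at 28 and 34 peaks. In the SOX2 lists before induction it was the reverse, with 14 and 9 compressed against 55 and 70 canonical. The ratio of compressed to canonical was 1.54 and 2.29 for SOX17 and 0.255 and 0.129 for SOX2 at 0 h, and it stayed below 1 in all 8 SOX2 lists, the highest being 0.458. The GATA4 lists held 15 and 7 compressed against 3 and 1 canonical matches. These are few peaks, at most 0.186% of a SOX17 list for the compressed form.

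The 2 forms lay at different kinds of SOX17 sites. Of the SOX17 peaks with the canonical form, 20 of 28 (replicate 1) and 23 of 34 (replicate 2) coincided with a SOX2 peak of 0 h, or 71.4% and 67.65%. Of those with the compressed form, 7 of 43 and 9 of 78 did (16.3% and 11.5%). Over all SOX17 peaks the shares were 37.3% and 31.2%, so the 2 forms lay on opposite sides of the list as a whole in both replicates. A GATA4 peak overlapped 9 of 43 and 7 of 78 peaks with the compressed form and 2 of 28 and 2 of 34 with the canonical form.

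SOX17-only regions were more often promoters. Within 1 kb of the transcription start site (TSS) of a protein-coding gene lay 21.2% of them in either SOX17 list, against 13.3% to 13.5% of shared regions in the 4 lists and 14.0% of GATA4-only regions in both GATA4 lists. Shared regions were the most distal, with a median distance to a TSS of 17.6 kb against 13.6 kb for GATA4-only and 13.8 kb for SOX17-only regions, and 25.2% to 25.3% of them were over 50 kb away. By GENCODE annotation 45.1% and 45.0% of shared regions at GATA4 summits were intergenic and 39.8% and 39.9% intronic. GATA4-only regions were more often in introns (47.35% and 48.5%) and less often intergenic (33.0% and 32.6%). SOX17-only regions were intronic in 33.9% and 34.0% and intergenic in 42.4% in both lists. With the TSSs of all annotated genes the promoter shares were 18.99%, 25.8% and 26.6% for shared, GATA4-only and SOX17-only regions, so the GATA4-only share lay close to the SOX17-only share and not to the shared one.

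Over whole lists the promoter shares of the 2 proteins overlapped. Peaks within 1 kb of a TSS made up 16.98% and 14.3% of the GATA4 lists and 18.9% and 16.8% of the SOX17 lists, and the groups overlapped (p = 0.667, exact permutation test; adjusted p = 0.667). Within 5 kb the shares were 29.0% and 26.3% for GATA4 and 31.7% and 29.7% for SOX17, without overlap and with p = 0.33 (exact permutation test; adjusted p = 0.417).

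Base composition was alike, with 49.5% to 51.0% GC around the summits of every class and list. Repeat-masked bases were more frequent around SOX17-only summits (20.0% in both lists) than around shared (13.4% to 14.5%) or GATA4-only summits (11.2% and 11.7%). The AP-1 motif (TGACTCA), used as a reference, was found at 4.17% to 5.68% of summits in every class, and the GC box (GGGCGG), a promoter element, at 17.2% and 17.8% in SOX17-only, 13.1% to 13.6% in shared and 11.7% and 11.0% in GATA4-only regions.

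The regions were then compared with the 26 other transcription factor lists of the series. GATA6 at 2 h covered nearly all shared regions. Peaks of its 2 lists lay in 88.5% and 85.1% of shared, 73.9% and 59.5% of GATA4-only, and 65.7% and 54.7% of SOX17-only regions. Since these GATA6 lists hold 79358 and 62683 peaks, they also overlapped 47.4% and 38.6% of all 52146 regions. At 0 h, before induction, GATA6 lists held 86 and 882 peaks and overlapped at most 0.315% of any class.

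The times of the later GATA6 lists are uncertain. The lists recorded for 4 h carry peak names of 48 h samples, those recorded for 8 h carry names of 4 h, and those recorded for 48 h carry names of 8 h. The lists recorded for 4 h and named 48 h overlapped 65.4% and 71.3% of shared, 26.5% and 29.9% of GATA4-only and 8.88% and 13.1% of SOX17-only regions. Those recorded for 8 h (named 4 h) overlapped 86.7% and 89.3%, 65.5% and 72.7%, and 47.8% and 53.9%, in the same order. Those recorded for 48 h (named 8 h) gave 85.7% and 88.0%, 68.6% and 71.2%, and 30.9% and 34.2%. In every pair of lists after induction, both shared values lay above both values of the other classes. Shared regions were also the widest, and the part of width in this order, at 2 h and later, was not tested. Among GATA6 lists from 2 h on, the lists recorded for 4 h were the only pair with more compressed than canonical half-sites in both replicates (15 and 12 against 4 and 4).

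SOX2 and NANOG marked the classes differently from GATA6. SOX2 at 0 h overlapped 34.5% and 32.5% of shared and 41.2% and 37.96% of SOX17-only regions, but only 7.58% and 6.06% of GATA4-only regions. NANOG at 0 h overlapped 14.7% and 21.5% of shared, 13.8% and 19.7% of SOX17-only and 1.89% and 3.03% of GATA4-only regions. After induction the shared class had the higher share. SOX2 at 8 h overlapped 63.7% and 62.4% of shared against 25.6% and 23.2% of SOX17-only regions, and NANOG at 2 h overlapped 66.2% and 51.5% against 47.0% and 30.7%. NANOG at 4 h overlapped 45.7% and 44.1% of shared and 17.9% in both lists of SOX17-only regions. In every SOX2 and NANOG list the GATA4-only share was the lowest of the 3 classes, at most 32.2%, in SOX2 replicate 1 at 4 h. Within the lists of 0 h, 28.1% of shared regions held SOX2 in both replicates and 13.4% held NANOG in both. List lengths differ between time points, so these shares are compared between classes within a list. The classes also differ in width, with GATA4-only regions the narrowest, which a comparison within a list does not remove.

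**Figure D4:**
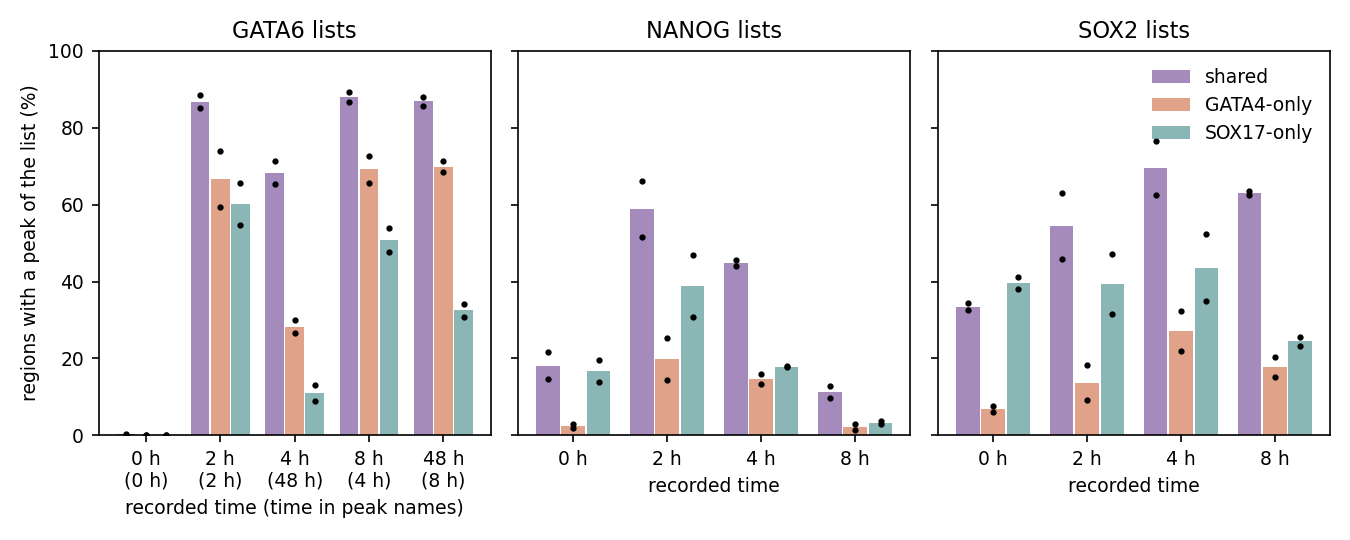
Percentage of regions of each class that overlap a peak of the GATA6, NANOG or SOX2 lists (y axis) at each recorded time, with bars for the mean and dots for the 2 lists; GATA6 times in peak names are in brackets. In the GATA6 lists recorded for 4 h (named 48 h) shared regions stand at 65.4% and 71.3%, GATA4-only at 26.5% and 29.9%, and SOX17-only at 8.88% and 13.1%.

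Of all shared regions, 98.7% overlapped a GATA6 peak in some list from 2 h on, against 87.9% of GATA4-only and 76.7% of SOX17-only regions. A NANOG or SOX2 peak in some list was found at 87.1% of shared, 52.65% of GATA4-only and 72.9% of SOX17-only regions. Only 24 shared regions (0.945%) had none of these, against 28 GATA4-only regions (10.6%) and 2236 SOX17-only regions (15.8%). GATA6 without NANOG or SOX2 in any list was found at 12.0% of shared, 36.7% of GATA4-only and 11.3% of SOX17-only regions. Shared regions were the widest and GATA4-only regions the narrowest, and the part of width in these shares was not tested.

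Regions were assigned to the protein-coding gene with the nearest TSS, up to 50 kb away. Of 21842 genes, 1586 had a shared region (7.26%), 211 a GATA4-only region (0.966%) and 6086 a SOX17-only region (27.9%), and 31.0% had a region of any class. The count for shared regions was 2726 genes without GATA4 replicate 2 and was 891 with −log10 q of at least 5. Genes with a shared region often had SOX17 elsewhere too: 998 of the 1586 (62.9%) also had a SOX17-only region, while 577 had neither other class. Of the 211 genes with a GATA4-only region, 94 (44.6%) also had a SOX17-only region, 32 (15.2%) a shared region and 106 neither. Only 57 genes had 3 or more shared regions (0.261%), against 1095 with 3 or more SOX17-only regions (5.01%), a class with many more regions.

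Genes of the PrE program had shared regions more often than all genes. The study's supplementary gene lists used here hold 859 PrE and 536 Epi genes from 1 published single-cell dataset of embryos. They are longer than the study's PrE and Epi networks, which keep only genes also found in another dataset. On the PrE list, 219 of 843 matched genes (26.0%) had a shared region, against 7.26% of all genes, and 471 (55.9%) had a SOX17-only region, against 27.9%. On the Epi list, 69 of 515 (13.4%) had a shared region and 268 (52.0%) a SOX17-only region. Counted by region, 11.9% of shared, 7.197% of GATA4-only and 7.94% of SOX17-only regions were assigned to a PrE gene, and 3.23%, 3.41% and 4.88% to an Epi gene. Of the regions assigned to PrE genes, 33.6% of shared and 43.9% of SOX17-only regions lay within 5 kb of the TSS, the study's limit for a proximal element. GATA4-only regions were assigned to 18 PrE genes (2.14%) and 9 Epi genes (1.75%), against 0.966% of all genes. Peak heights at PrE genes were close to those of all shared regions, with median GATA4 folds of 7.39 and 6.72 and SOX17 folds of 9.63 and 11.3.

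**Figure D5:**
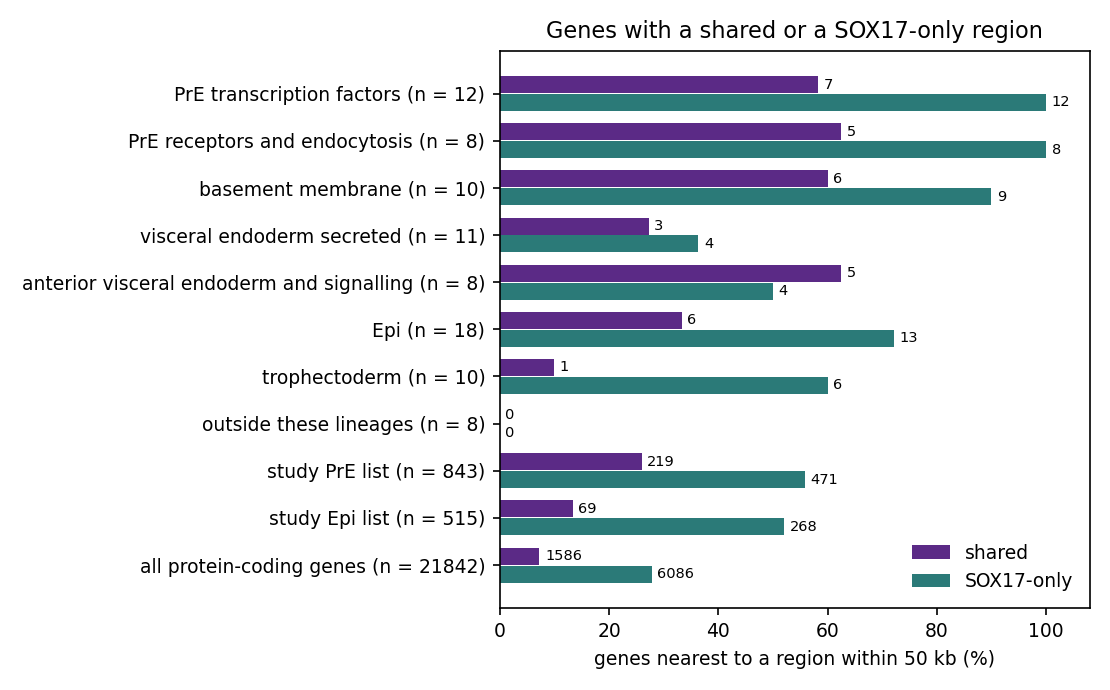
Percentage of the genes of each list (x axis) that are the nearest protein-coding gene, within 50 kb, of a shared or a SOX17-only region, with the number of genes beside each bar. Shared regions were found at 7 of 12 PrE transcription factor genes, at 1 of 10 trophectoderm genes and at none of 8 genes outside these lineages, against 7.26% of all genes.

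Among 12 PrE transcription factor genes, all had a SOX17-only region (all genes 27.9%). A shared region was found at 7 (all genes 7.26%), among them Gata6, Gata4, Sox17, Foxa2, Foxq1 and Tcf7l2. Gata4 had 3 shared regions, the strongest at chr14:63230875-63232799 in its own intron, with GATA4 folds of 5.19 and 5.64 and SOX17 folds of 15.3 and 23.0. Sox17 had 2, the strongest at chr1:4473505-4475157, 19131 bp from its TSS, with GATA4 folds of 7.76 and 9.27 and SOX17 folds of 9.14 and 15.5. Both proteins were therefore found at both genes. At the promoter of Sox17 lay a SOX17-only region, with folds of 6.72 and 5.28. Foxq1, a forkhead factor, had its strongest shared region 24709 bp upstream, with GATA4 folds of 12.6 and 15.9 and SOX17 folds of 26.95 and 33.8, which were the highest GATA4 folds among these genes. At Gata6 the strongest shared region lay 46037 bp upstream, with GATA4 folds of 4.11 and 3.85 and SOX17 folds of 15.4 and 16.2.

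Receptor and endocytosis genes followed, with 5 of 8 having a shared region (all genes 7.26%) and 8 of 8 a SOX17-only region (all genes 27.9%). Pdgfra, the receptor that marks PrE cells, had 4 shared and 8 SOX17-only regions. Its strongest shared region lay 14337 bp upstream, with GATA4 folds of 7.05 and 9.38 and SOX17 folds of 22.4 and 28.9, and its promoter was SOX17-only, with folds of 11.9 and 14.9. The genes for the endocytic receptors Lrp2 and Cubn, their partner Amn, and the adaptor Dab2 had 1 shared region each. At Lrp2 the GATA4 folds were 10.9 and 6.32 and the SOX17 folds 6.48 and 4.87. At Cubn the strongest site was SOX17-only, 4226 bp upstream, with folds of 33.2 and 39.2.

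Of 10 basement membrane genes, 6 had a shared region (all genes 7.26%) and 9 a SOX17-only region (all genes 27.9%). The type IV collagen genes Col4a1 and Col4a2 are neighbours. A shared region 3642 bp upstream of the Col4a2 start, in an intron of Col4a1 at chr8:11307248-11310447, had SOX17 folds of 68.6 and 68.0 and GATA4 folds of 5.71 and 4.596. Lama1 and Lamc1, for laminin chains, had SOX17 folds of 22.7 and 30.8, and of 28.8 and 29.2, at their strongest shared regions, with GATA4 folds of 3.70 and 4.13, and of 4.85 and 5.19. The promoters of both laminin genes were SOX17-only (14.8 and 14.9 for Lama1, 12.6 and 15.3 for Lamc1). Sparc, a matrix protein gene, had a shared region 6691 bp upstream in which GATA4 replicates differed, with folds of 11.7 and 3.68.

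Of 11 genes for secreted visceral endoderm proteins, 4 had a SOX17-only region (all genes 27.9%) and 3 a shared region (all genes 7.26%): Ttr, Ctsl and Spink1. Afp, Apoa1, Apoa4, Apob, Rbp4, Trf and Fst had no region of any class. Of 8 genes of anterior visceral endoderm and signalling, 5 had a shared region and 4 a SOX17-only region. Dkk1, a Wnt inhibitor, had 3 shared regions and no SOX17-only region, with folds of 9.20 and 8.20 for GATA4 and 21.1 and 14.0 for SOX17 at the strongest. Cer1, another secreted antagonist, had 1 shared region 1006 bp upstream, with GATA4 folds of 9.54 and 5.02 and SOX17 folds of 18.8 and 20.4.

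Of 18 Epi genes, 13 had a SOX17-only region (all genes 27.9%). A shared region was found at 6 (all genes 7.26%): Esrrb, Klf4, Klf5, Tfcp2l1, Nodal and Sall4. Esrrb, an orphan nuclear receptor of the naive state, had 3. At its strongest, at chr12:86480471-86480994 in an intron, GATA4 folds were 20.2 and 16.95 and SOX17 folds 3.95 and 4.56. There 4 GATA matches and no SOX match lay within 100 bp. Nanog and Pou5f1 had SOX17-only regions, with folds of 20.7 and 19.6 at Nanog and 48.3 and 54.2 at Pou5f1. Both lay in regions that held SOX2 and NANOG peaks in both lists at 0 h. Tbx3 had 9 and Sall4 11 SOX17-only regions. Of 10 trophectoderm genes 1 had a shared region (Tead4) and 6 a SOX17-only region. Of 8 genes outside these lineages none had a region of any class, where 31.0% of all genes had one. None of the listed genes in these 8 lists had a GATA4-only region, where 0.966% of all genes had one, so the count is near that share.

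Over all genes, the 10 with the most shared regions each had 4, among them Abl1, Bcl2l1, Gcnt2, Mapt, Myh9, Pdgfra, Pik3r1, Rbpms and Rreb1. Bcl2l1 encodes a survival factor and Pik3r1 a regulatory subunit of PI3 kinase. SOX17-only regions were most numerous at Arid5b (22), Akap12 (18), Etl4 and Etv5 (16 each) and Rbpms (15), followed by Cmklr1, Smad7, Macf1, Rgs3 and Col4a1 with 11 to 13. Etv5 is a transcription factor of the FGF pathway, and it had no shared region. Of GATA4-only regions, Bend5, Def8 and Fbln1 had 2 each and every other gene at most 1. Only 214 GATA4-only regions were assigned to a gene, against 1899 shared and 10931 SOX17-only regions. Counts per gene therefore do not compare the classes. The median distance to the nearest shared region was 142.8 kb for SOX17-only and 184.5 kb for GATA4-only regions, and 30.1% and 21.2% of them had one within 50 kb.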

How the data were processed

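Peak lists of the GATA4 and SOX17 samples at 24 h were compared. As the methods of the study describe, reads were aligned by the authors with Bowtie2 to mm10, and they removed blacklisted regions, kept duplicates and called narrow peaks with MACS for each library against a control antibody library. The deposited lists give, per peak, a fold (a ratio at the summit over background), a −log10 p-value, a −log10 q-value and an integer score, which was not used. The names of the deposited GATA4 lists state a filter whose rule is not given in the sources used here. The deposited lists give no read totals. The paper states that read numbers are in its supplementary data, but these were not used here. Depth is therefore described only as the recovered background coverage, and coverage limits which weak peaks can be found. Mitochondrial peaks (2 per list) were kept.

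Peaks were merged with a minimum overlap of 1 bp, and the strongest peak of a list gave a region's fold and summit. TSSs, introns and exons came from GENCODE vM21 and sequence from GRCm38.p6, the same build as mm10; all peaks lay within its chromosomes. Motifs were exact words within 100 bp of the summit. Promoter meant within 1 kb of a protein-coding TSS. Lists were compared by two-sided exact permutation tests, with Benjamini-Hochberg adjustment over 5 tests. The study states that replicates were done independently, but the sources used here do not say whether they were separate cultures, so p-values measure the spread between these samples, which may be technical. Named genes were the listed genes and the 10 genes with most regions of each class; named regions were the 5 strongest of each class. A gene that these rules name is not reported here. Members and lists were chosen with earlier results of these data known. Alternatives were −log10 q of at least 5, 4000 peaks per list, each list left out, peaks cut to 100 bp around summits, intermediate regions counted as only, a 50 bp motif window, a shorter SOX core, all TSSs, and replicate pairing. Python 3.11.15, numpy 2.4.6, pandas 2.3.3, scipy 1.17.1 and pysam 0.24.0 were used, and the code was tested on simulated data. Coordinates are 1-based.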

Additional observations from a re-analysis of the deposited data

Results flagged for a closer look

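3 measures set shared regions apart from single-protein regions in opposite directions for the 2 proteins, in both lists of each, though for the GATA motif the GATA4 side was near 0 in replicate 1 (77.55% shared, 77.65% GATA4-only). Without GATA4 replicate 2 the shared value was the higher, at 62.46% against 52.67% in GATA4-only regions. That shared value is a mean over summits of GATA4 replicate 1 and of both SOX17 lists. The GATA4-only value is from GATA4 summits alone, so the 2 values are not like measures. The differences between the proteins were not tested. The GATA motif share in shared minus GATA4-only regions was -1.56 percentage points (mean of the GATA4 lists), and in shared minus SOX17-only regions it was 30.6 (mean of the SOX17 lists). The SOX motif share differed by 22.82 percentage points at GATA4 summits and by -7.064 at SOX17 summits. Repeat-masked bases differed by 1.999 percentage points for GATA4 and by -5.699 for SOX17.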

How the results depend on the processing

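Of 197 alternative values for 24 results, 119 stayed close to the reported value and 78 moved further. Close meant the same sign and side of the threshold for the 5 tested differences, within 1.5 times for counts, and otherwise within the error. For promoter and motif shares the error was the larger of the list SD and the distance to the Wilson bound. These shares are means over lists, with summits of both proteins in shared regions and of 1 protein in single-protein regions. The smallest possible p was 0.33, or 0.5 with the replicate block. No tested difference could therefore pass the threshold of 0.05, and only a change of sign could count. The SOX motif difference counted as close at -0.1609 percentage points with a 50 bp window, against -4.743 as reported. Orders between classes did turn: GATA4-only regions outnumbered shared ones with the top 4000 peaks, and their GATA motif share was below that of shared regions without GATA4 replicate 2. The causes were not tested. With −log10 q of at least 5 there were 1363 shared regions and 891 genes with one, 76.53% of GATA4 and 10.45% of SOX17 regions were shared, the log2 fold differences were 0.02537 (GATA4) and 0.4634 (SOX17), the summit distance was 59.0 bp, promoters made up 11.43% of shared and 20.42% of SOX17-only regions, and the GATA motif share was 87.89% in GATA4-only and 38.84% in SOX17-only regions. With the top 4000 peaks of each list there were 865 shared, 1262 GATA4-only and 1734 SOX17-only regions and 562 genes with a shared region. There 35.85% of GATA4 and 27.74% of SOX17 regions were shared, fold differences were 0.03401 and 0.05079, the summit distance was 61.75 bp, the SOX motif share was 40.64% (shared), 18.42% (GATA4-only) and 48.18% (SOX17-only), promoters made up 17.19% of SOX17-only regions, and the GATA6 2 h share in shared minus SOX17-only regions was 17.94 percentage points. With peaks of 100 bp on each side of the summit, 74.48% of GATA4 regions were shared, the summit distance was 60 bp and the SOX motif share in GATA4-only regions was 14.87%. Counting intermediate regions as single-protein regions gave 573 GATA4-only regions and a GATA motif share of 38.71% in SOX17-only regions. A 50 bp motif window gave GATA shares of 45.26%, 52.65% and 20.39% and SOX shares of 16.49%, 4.545% and 18.91% in shared, GATA4-only and SOX17-only regions, and the core ACAAT gave 42.12%, 24.24% and 46.11%. TSSs of all annotated genes gave promoter shares of 18.99%, 25.76% and 26.59%. The alternatives for genes and for GATA6 at 2 h were chosen after seeing the data.

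Leaving out each list in turn gave ranges of 2589 to 4631 shared, 322 to 2660 GATA4-only and 14630 to 35908 SOX17-only regions, shared percentages of 55.55 to 89.66% (GATA4) and 6.654 to 24.04% (SOX17), fold differences of 0.0719 to 0.3486 (GATA4) and 0.4361 to 1.027 (SOX17), and 1614 to 2726 genes with a shared region. Promoter shares ranged from 13.34 to 18.45% (shared) and 16.49 to 21.57% (SOX17-only), GATA motif shares from 62.46 to 74.8% (shared), 52.67 to 80.21% (GATA4-only) and 34.26 to 38.24% (SOX17-only), SOX motif shares from 9.627 to 14.32% (GATA4-only) and 30.63 to 36.68% (SOX17-only), and the GATA6 2 h difference from 22.07 to 45.07 percentage points. The 5 tested differences kept their direction.

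Replicate 1 and 2 of the proteins share only a number: replicate 1 minus replicate 2 had the same sign in 4 of 5 measures. The replicate block (paired exact sign-flip test) cannot change the mean differences. They were -2.543 for log2 peak number, -2.24 and -3.092 for peaks within 1 and 5 kb of a TSS, 29.33 for the GATA and -4.743 for the SOX motif. Each had exact p = 0.5 in the sign-flip test, the smallest that 2 pairs allow.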

Other observations

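Offsets between GATA and SOX matches were counted within regions, a count chosen after the data were seen. In SOX17-only regions, the 4 commonest offsets among 8858 pairs, where the median was 7 pairs per offset, were these: 84 pairs at 32 bp and 83 at 101 bp on opposite strands, and 75 at 33 bp and 64 at 61 bp on the same strand. Of these pairs, 66.7%, 85.5%, 73.3% and 65.6% lay in repeat-masked bases, against 12.3% of all pairs. In shared regions the commonest offset was also 33 bp on the same strand, with 23 of 3027 pairs, 56.5% of them in repeats against 6.94% of all pairs. Of the 84 pairs in GATA4-only regions none lay in repeats.

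Repeat-masked bases held 22.8% of the SOX matches in SOX17-only regions, 15.1% in shared regions and 2.04% (1 of 49) in GATA4-only regions. For GATA matches the shares were 18.4%, 10.6% and 9.48%.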
